A study of Ovis aries with 30 samples.

Results

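Liver mRNA of 10 genes of the NRF2 antioxidant and glutathione system was measured in 30 lambs. The genes were taken by name from a fixed list (NFE2L2, KEAP1, NQO1, HMOX1, GCLC, GCLM, GSR, TXNRD1, SRXN1 and CAT), not by a ranking of their values. That list was chosen with earlier results of these data known. All 10 were present among the 31304 gene rows of the count table and among the 17840 genes that passed the filter on low counts. NFE2L2 encodes NRF2, a transcription factor that switches on detoxifying and antioxidant genes. In unstressed cells KEAP1 holds NRF2 in the cytoplasm and presents it to a ubiquitin ligase for destruction, and electrophiles or oxidants that modify KEAP1 cysteines let newly made NRF2 reach the nucleus. This control acts largely on NRF2 protein, so NFE2L2 mRNA is not a direct measure of NRF2 activity, and its target genes are the usual readout. In liver these targets support glutathione synthesis, quinone reduction, haem breakdown and the thioredoxin system, which handle products of drug and pollutant metabolism.

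Whole liver RNA was sequenced from first-generation (F1) sheep lambs of ewes that were either controls or exposed to biosolids, processed sewage sludge that carries mixed environmental chemicals, before conception and during gestation. There were 8 control females, 8 biosolids females, 7 control males and 7 biosolids males. No treatment after birth is labelled for any of the groups, and the labels give neither breed nor age at sampling. Each library came from 1 tagged lamb. Litters, dams and batches are not labelled. Control and exposed lambs carry separate series of tag numbers, so any difference of flock or handling between them cannot be told apart from exposure. The comparisons asked whether exposure shifted the transcriptome in each sex and whether the sexes responded differently.

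Total counts lay between 18.7 and 51.9 M (mega-counts) per library. ALB, the hepatocyte product albumin, lay between 30009 and 72827 CPM (counts per mega-count of the scaled library), in keeping with the liver label. 3 libraries stood apart. Biosolids male 8778 had 87.5% of its counts on ribosomal RNA rows, against 0.299 to 7.69% in the other 29, which left 2.34 M counts for other genes and as few as 10 counts for NQO1. Control female 8263 had the lowest median Spearman correlation with the other libraries (0.943) and the highest summed macrophage markers. The library labelled control male 8408 held 302 CPM of LOC101112291, an X-linked RNA at no more than 2.05 CPM in the other 13 males and at 318 CPM or more in the 16 females. This level goes against its label, which was kept here. The library was the highest of its group for GCLC and for the GCLC to GCLM ratio, and the lowest for NFE2L2, NQO1 and SRXN1. The sex differences of GCLC, of NQO1 and of the ratio are therefore given with and without it. Outside 8778, no member had fewer than 79 counts in any library. Whole liver was sampled, so fewer cells of a type and less RNA per cell cannot be told apart.

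Compared per kilobase of exon, the members spanned a wide range of levels. Catalase (CAT), which splits hydrogen peroxide in peroxisomes, had a median of 552 CPM per kb and ranked 97 from the top of the genes tested. HMOX1 followed at 46.6 CPM per kb, and each lamb held more CAT than HMOX1 and more HMOX1 than KEAP1. KEAP1 (20.4 CPM per kb), GCLC (17.2) and NFE2L2 (17.0) formed the next tier. In that tier KEAP1 exceeded GCLC in 22 of 30 lambs, and GCLC exceeded NFE2L2 in 13 of 30, so the order of the latter pair was not fixed. GCLM (9.05 CPM per kb) lay above SRXN1 (5.30) in 28 of 30 lambs, and SRXN1 above TXNRD1 (4.52) in 23 of 30. GSR (2.07) and NQO1 (2.03) were the least abundant members, with GSR above NQO1 in 11 of 30 lambs. NQO1, a common marker of NRF2 activity in other tissues, was thus near the middle of all genes tested in lamb liver, with 51.9% of them below it.

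**Figure D1:**
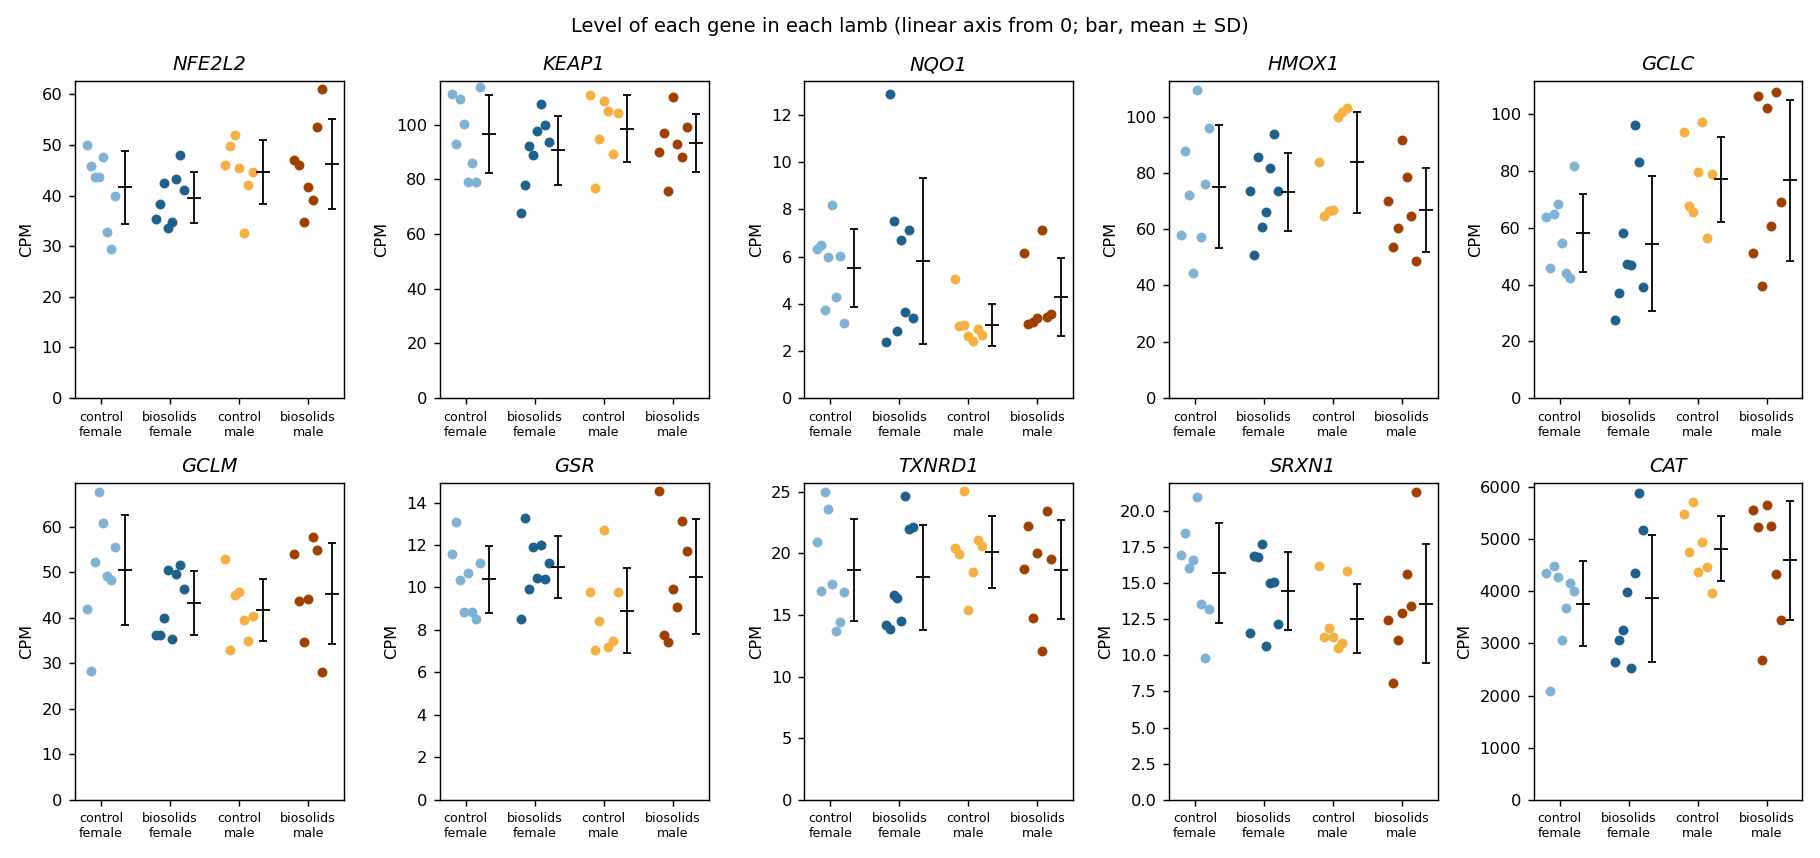
CPM of each of the 10 genes in each lamb by group (points, 1 per lamb; bar, mean ± SD; 8 lambs per female group and 7 per male group). The exposed and control clouds overlap for every gene, while NQO1 is low in control males apart from lamb 8351 at 5.06 CPM and reaches 12.9 CPM in biosolids female 8649.

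The regulator pair came first. NFE2L2 (chromosome 2, 132853236 to 132885813, plus strand of assembly ARS-UI_Ramb_v3.0, as for all coordinates here) lay between 29.5 and 50.0 CPM in control females (median 43.7) and between 33.7 and 48.1 CPM in biosolids females (median 39.7). In males NFE2L2 lay between 32.7 and 52.0 CPM in controls (median 45.5) and between 34.7 and 61.1 CPM in exposed lambs (median 46.1). The highest of these values belonged to lamb 8778, and the ranges overlapped in both sexes. KEAP1 (chromosome 5, 12860985 to 12870878, minus strand) ran from 78.9 to 114 CPM in control females (median 96.7) and from 67.7 to 108 CPM in biosolids females (median 92.9). In males KEAP1 ran from 77.0 to 111 CPM in controls (median 104) and from 75.9 to 110.2 CPM in exposed lambs (median 93.1). KEAP1 was the least variable member, with a within-group SD of 0.20 log2 units, below that of all but 7.64% of the genes averaging at least 1 CPM. An exon of KEAP1 overlaps the antisense gene LOC114114828 (median 36 counts). The sources used here do not say whether strand was used in counting, so reads of that pair may not have been separated.

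GCLC and GCLM encode the catalytic and the modifier subunit of glutamate-cysteine ligase, the rate-limiting enzyme of glutathione synthesis. GCLC (chromosome 20, 7157378 to 7202454, plus strand) lay between 42.2 and 81.8 CPM in control females (median 59.1) and between 27.6 and 96.2 CPM in biosolids females (median 47.1). In males GCLC lay between 56.4 and 97.4 CPM in controls (median 78.9) and between 39.5 and 108 CPM in exposed lambs (median 69.2). The exposed groups enclosed the control range at both ends in each sex. The lowest values came from biosolids females 8647, 8649 and 8775, and the highest from biosolids males 8770, 8695 and 8762.

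GCLM (chromosome 1, 71044474 to 71065678, minus strand) lay between 28.3 and 67.7 CPM in control females (median 50.8) and between 35.3 and 51.6 CPM in biosolids females (median 43.1). In males GCLM lay between 33.0 and 52.8 CPM in controls (median 40.5) and between 28.0 and 57.7 CPM in exposed lambs (median 44.1). The lowest GCLM values came from 8778 and 8263. GSR, glutathione reductase, which returns oxidised glutathione to its reduced form (chromosome 26, 25951312 to 25993181, minus strand), lay between 8.53 and 13.1 CPM in control females and between 8.50 and 13.3 CPM in biosolids females. In males GSR lay between 7.05 and 12.7 CPM in controls (median 8.42) and between 7.45 and 14.6 CPM in exposed lambs (median 9.91). GSR overlapped between exposed and control lambs in both sexes.

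TXNRD1, cytosolic thioredoxin reductase (chromosome 3, 173515148 to 173577637, plus strand), lay between 13.7 and 25.01 CPM in control females and between 13.9 and 24.6 CPM in biosolids females. In males TXNRD1 lay between 15.4 and 25.1 CPM in controls (median 20.5) and between 12.1 and 23.4 CPM in exposed lambs (median 19.5). Its female ranges were nearly identical. SRXN1, sulfiredoxin, which reactivates over-oxidised peroxiredoxins (chromosome 13, 60067743 to 60074684, plus strand), lay between 9.80 and 21.0 CPM in control females and between 10.6 and 17.7 CPM in biosolids females. In males SRXN1 lay between 10.5 and 16.2 CPM in controls (median 11.3) and between 8.08 and 21.3 CPM in exposed lambs (median 12.97). The exposed maximum again came from 8778. CAT (chromosome 15, 63787893 to 63824600, plus strand) lay between 2087 and 4478 CPM in control females (median 4085) and between 2525 and 5895 CPM in biosolids females (median 3629.8). In males CAT lay between 3960.5 and 5722 CPM in controls (median 4761) and between 2691 and 5653 CPM in exposed lambs (median 5229). The lowest CAT value was that of 8263 and the highest that of biosolids female 8733.

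HMOX1, haem oxygenase 1, breaks haem down to biliverdin, iron and carbon monoxide and is abundant in macrophages that clear red cells. It lies on chromosome 3 from 179234919 to 179243214 (plus strand). HMOX1 lay between 44.3 and 109 CPM in control females (median 74.1) and between 51.0 and 93.7 CPM in biosolids females (median 73.5). In males HMOX1 lay between 64.6 and 103 CPM in controls (median 83.9) and between 48.6 and 91.8 CPM in exposed lambs (median 64.8). 3 of 7 exposed males lay below the lowest control male, and 6 of 7 lay below the control median.

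NQO1, a flavoprotein that reduces quinones, lies on chromosome 14 from 36338391 to 36351574 (minus strand). NQO1 lay between 3.19 and 8.17 CPM in control females (median 5.997) and between 2.36 and 12.9 CPM in biosolids females (median 5.16). In males NQO1 lay between 2.41 and 5.06 CPM in controls (median 2.92) and between 3.14 and 7.14 CPM in exposed lambs (median 3.44). The biosolids females held both the lowest and the highest NQO1 value of the study, in lambs 8647 and 8649. All 7 exposed males lay above the median control male, but 5 of them were only between 3.14 and 3.55 CPM, and lambs 8690 and 8764 (6.17 and 7.14 CPM) carried most of the difference in means.

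In females, none of the 10 genes passed the adjusted threshold of 0.05 for exposure (quasi-likelihood test of edgeR, Benjamini-Hochberg adjustment over all genes), and the same test called 0 (0%) of all genes. None of the 10 reached an unadjusted p under 0.05, where 3.65% of all genes did. 3 of the 10 were higher and 7 lower, with a median log2 fold change of -0.06, against -0.02 over all genes. The largest difference was in GCLM, at -0.23 ± 0.15 (SE) on the log2 scale (unadjusted p = 0.148, adjusted p = 1 by edgeR with Benjamini-Hochberg adjustment), with 7 of 8 exposed females below the control median. Without control female 8263, the lamb with the lowest GCLM of its group, the difference was -0.31 (unadjusted p = 0.0303 and adjusted p = 1 by edgeR). The smallest 95% interval was that of KEAP1, from -0.31 to 0.13. For GCLC the interval ran from -0.55 to 0.36 and for NQO1 from -0.50 to 0.64, so differences within those bounds are not excluded.

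In males the 10 genes also gave 0 calls in this edgeR test, beside 0 (0%) of all genes. None reached an unadjusted p under 0.05, beside 5.44% of all genes. 5 of the 10 were higher and 5 lower, and their median log2 fold change of 0.02 was close to the 0.01 of all genes. HMOX1 differed by -0.32 ± 0.18 (SE) on the log2 scale, with a 95% interval from -0.69 to 0.04 (unadjusted p = 0.0813, adjusted p = 0.816 by edgeR with Benjamini-Hochberg adjustment). With single lambs left out, the unadjusted p for HMOX1 ranged from 0.030 to 0.163 in edgeR. It was under 0.05 without control male 8364 (log2 difference -0.38) and without biosolids male 8762 (-0.42). NQO1 differed by 0.48 ± 0.30 (95% interval -0.14 to 1.09) and GSR by 0.23 ± 0.15 (-0.08 to 0.54), both with an adjusted p of 0.816 in the same test. GSR was at 0.34 (unadjusted p = 0.0329 by edgeR) without control male 8394, its highest control. GCLC differed by -0.01 ± 0.24 and CAT by -0.07 ± 0.20, with intervals of -0.50 to 0.48 and -0.48 to 0.35.

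**Figure D2:**
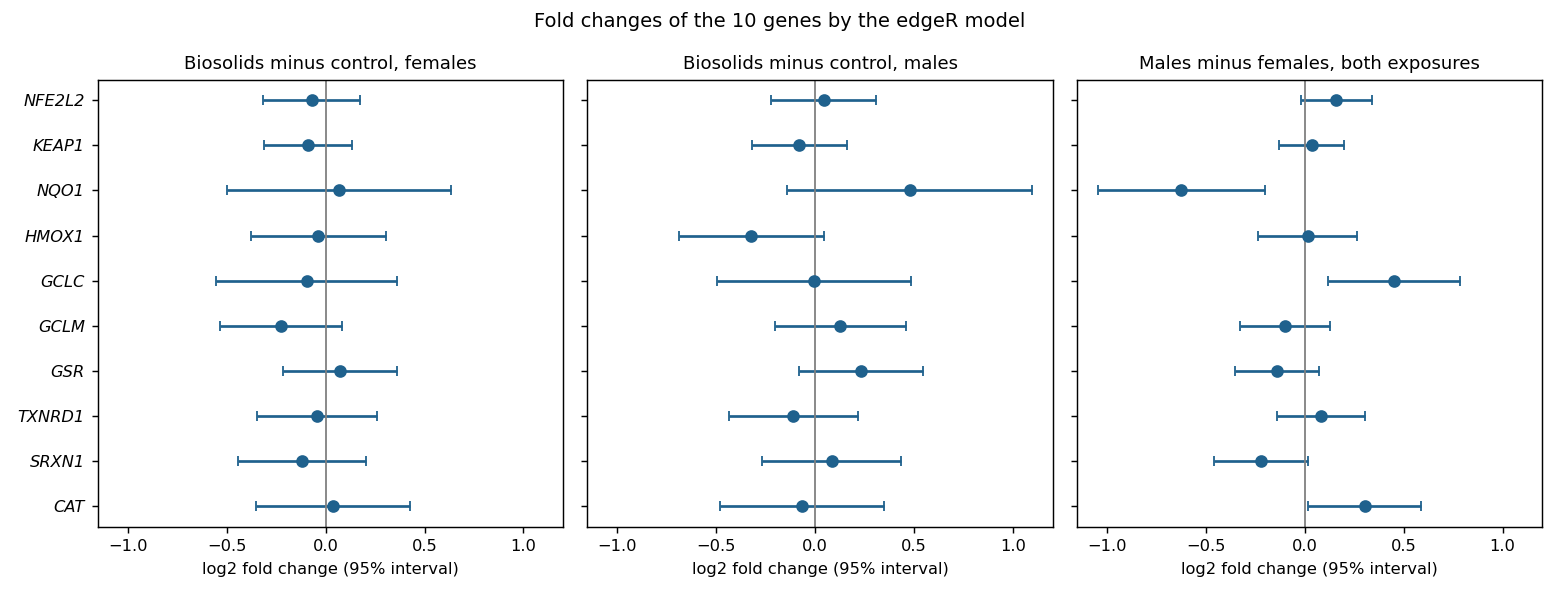
Log2 fold changes with 95% intervals of the 10 genes for exposure in females and in males and for sex (males minus females), from the edgeR fit over 30 lambs. The exposure intervals of all 10 genes include 0, whereas those of NQO1, GCLC and CAT for sex over both exposures do not, before adjustment.

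Averaged over both sexes, exposure called 0 of the 10 genes and 0% of all genes by the same edgeR test, and none of the 10 passed an unadjusted p under 0.05, beside 4.3% of all genes. The interaction, the male minus the female effect, gave 0 calls among the 10 and 0% over all genes. No member had an unadjusted p under 0.05 for it, where 3.63% of all genes did. DESeq2 called 0 genes for exposure in females, 4 in males, 4 over both sexes and 1 for the interaction, none of them a member, and limma voom called 0 in each of these contrasts.

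Between males and females, 3 of the 10 genes (NQO1, GCLC and CAT) reached an unadjusted p under 0.05 and none the adjusted threshold. In control lambs none of the 10 passed the adjusted threshold, beside 0.0841% of all genes, and NQO1 passed an unadjusted p under 0.05, as did 18.9% of all genes. NQO1 averaged 3.12 ± 0.892 CPM in control males (SD, n = 7) and 5.53 ± 1.66 CPM in control females (SD, n = 8). 6 of 7 control males lay below the lowest control female, and lamb 8351 was the exception. Among the 6 was the library labelled 8408, the lowest of the group at 2.41 CPM. The log2 difference was -0.83 ± 0.29 (SE; unadjusted p = 0.0081, adjusted p = 0.213 by edgeR with Benjamini-Hochberg adjustment). In exposed lambs no member passed, beside 0.0953% of all genes, and GCLC was the 1 member with an unadjusted p under 0.05, where 4.85% of all genes had one. GCLC was higher in exposed males by 0.50 ± 0.23 on the log2 scale (adjusted p = 0.969 by edgeR), and its unadjusted p rose above 0.05 in 8 of the 30 fits that left out 1 lamb. None of the exposed males lay below the lowest exposed female for NQO1. Whether the sex difference in NQO1 itself depended on exposure is the interaction given above, in which NQO1 had a log2 difference of 0.41 ± 0.41 and did not pass.

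Averaged over both exposures, 0 of the 10 genes passed the adjusted threshold for sex, beside 0.118% of all genes. 3 of the 10 had an unadjusted p under 0.05, where 19.6% of all genes did, so the members' share was not far from the background. NQO1 was lower in males by -0.62 ± 0.21 on the log2 scale (adjusted p = 0.189 by edgeR's quasi-likelihood test). GCLC was higher in males by 0.45 ± 0.16 (adjusted p = 0.201 by edgeR) and CAT by 0.30 ± 0.14 (adjusted p = 0.238 by edgeR). The unadjusted p of CAT rose above 0.05 in 12 of the 30 fits that left out 1 lamb, the difference then being 0.25 to 0.29, and those of NQO1 and GCLC in none. GCLC lay above the female median in 6 of 7 males of each exposure group. In controls the differences without 8408 were -0.77 for NQO1 and 0.34 for GCLC. Over both exposures, without 8263, 8408 or 8778 in turn, the NQO1 difference was -0.62, -0.60 and -0.62, that of GCLC 0.42, 0.42 and 0.45, and that of CAT 0.25, 0.30 and 0.32. Limma voom with sample weights called GCLC (log2 difference 0.50, adjusted p = 0.0267) alongside 3348 of all genes. DESeq2 called none of the 10 for sex, with a smallest adjusted p of 0.101, for NQO1. Markers of several cell types differed between the sexes beside these genes. Of the 8 tested hepatocyte markers, 6 were higher and 2 lower in males over both exposures, 3 and 1 of them at an unadjusted p under 0.05. Their sum, which ALB dominates, ranged over the 8 tested genes from 65702 to 117489 CPM in control females (median 80078) and from 93244 to 119292 CPM in control males (median 98434). In exposed lambs it ranged from 61071 to 114236 CPM in females (median 76912) and from 67245 to 114182 CPM in males (median 95737). Stellate cell and fibroblast markers summed to 199 to 346 CPM in control females (median 275) and to 380 to 590.2 CPM in control males (median 504), without overlap. The same sum was 208 to 613 CPM in exposed females (median 358) and 206 to 557 CPM in exposed males (median 364). Cholangiocyte markers had medians of 139 and 255 CPM in control females and males, and of 172 and 170.1 CPM in exposed females and males. CLDN4 dominates that sum, with a median of 143 CPM over the 30 lambs, and no other tested marker had a median above 5.72 CPM. Of the 7 tested cholangiocyte markers, 3 were higher and 4 lower in control males than in control females, 1 of the higher at an unadjusted p under 0.05 by edgeR. The part of these markers in the sex differences was not tested.

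The balance of the catalytic and modifier subunits of glutamate-cysteine ligase was described by their ratio. The ratio of GCLC to GCLM, each per kilobase of exon, ranged from 1.17 to 2.18 in control females (median 1.51) and from 1.95 to 3.29 in control males (median 2.38). 5 of 7 control males lay above the highest control female. The mean log2 ratio was 0.67 higher in control males (exact two-sided permutation test over lambs, p = 0.00249, adjusted p = 0.0199 over 8 ratio comparisons chosen after the levels had been seen). It stayed between 0.60 and 0.74 with each of the 15 control lambs left out (exact permutation p from 0.00175 to 0.00599), the lowest value being that without 8408. The test is not independent evidence of a sex difference, since it restates the opposite signs of GCLC (0.41 ± 0.23) and GCLM (-0.28 ± 0.16) in the sex contrast of controls, neither of which passed alone, and 18.9% of all genes had an unadjusted p under 0.05 in that contrast.

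In exposed lambs the GCLC to GCLM ratio ranged from 1.02 to 2.60 in females (median 1.57) and from 1.27 to 3.30 in males (median 2.63). The exposed males split into 3 lambs between 1.27 and 1.53 and 4 at 2.63 or above, the highest being 8778, which had 79 GCLM counts. The sex difference in exposed lambs was 0.47 on the log2 scale and did not pass (exact permutation p = 0.1204, adjusted p = 0.482). Without 8778 it was 0.37 (exact permutation p = 0.219). The mean log2 ratio of exposed minus control lambs was 0.03 in females and -0.17 in males (exact permutation p = 0.895 and p = 0.502). In males it was -0.27 without 8778 (exact permutation p = 0.291). Whether the sex difference in the ratio changed with exposure was not tested. The ratio of NFE2L2 to KEAP1 averaged between 0.788 and 0.900 in the 4 groups, and none of its 4 comparisons passed (smallest adjusted p = 0.513 by the exact permutation test).

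**Figure D3:**
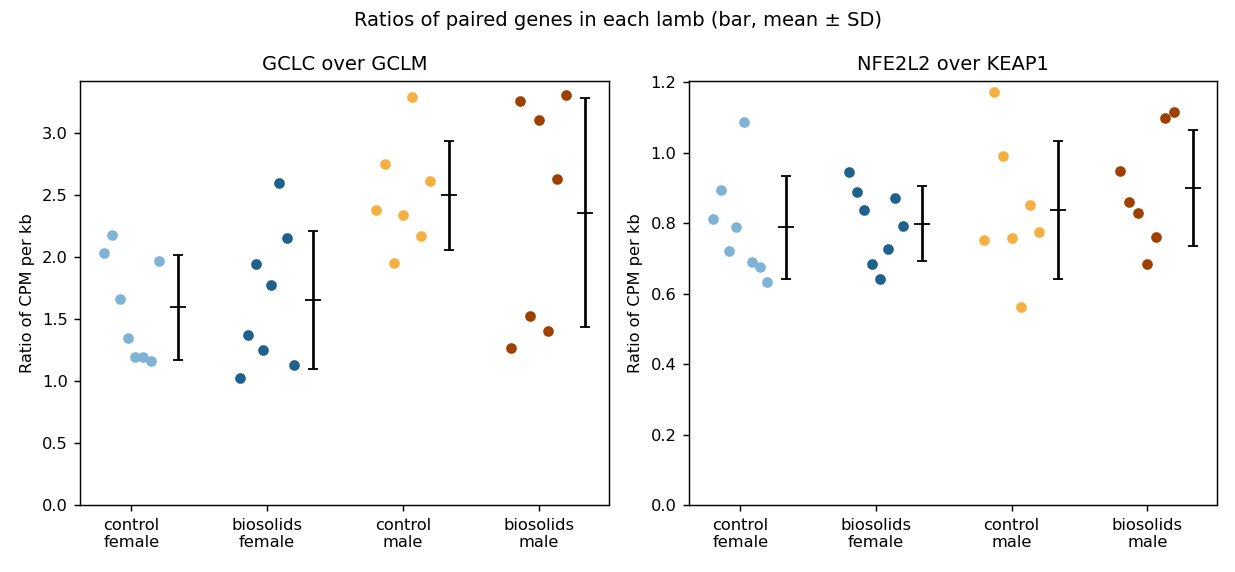
Ratio of GCLC to GCLM and of NFE2L2 to KEAP1 in each lamb, from CPM per kb of exon (points, 1 per lamb; bars, mean ± SD; 8 lambs per female group and 7 per male group). For GCLC over GCLM the 7 control males lie between 1.95 and 3.29 and the 8 control females between 1.17 and 2.18.

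Members differed in how much they varied within groups. The within-group SD was 0.57 log2 units for NQO1, more than in 81.9% of the 14344 genes averaging at least 1 CPM, and 0.47 for GCLC. It was 0.37 for CAT, 0.34 for HMOX1, 0.33 for SRXN1 and 0.32 for GCLM, around the 0.36 median of those genes. TXNRD1 (0.30), GSR (0.28), NFE2L2 (0.24) and KEAP1 (0.20) were steadier, so the regulators varied less than most of their targets. Exposed groups had the wider SD in 4 of 10 genes in females and in 9 of 10 in males. Spread was tested as the mean absolute deviation from the group median of log2 CPM, not as the SD. No comparison of that deviation passed among 20 (exact permutation, smallest adjusted p = 0.723). The 2 smallest unadjusted p-values were those of NQO1 in females and of GCLC in males. The NQO1 deviation was 0.34 in control and 0.72 in exposed females (SD 0.46 and 0.84, exact permutation p = 0.0402). The GCLC deviation was 0.22 in control and 0.46 in exposed males (SD 0.28 and 0.57, exact permutation p = 0.0723). The exposed males include 8778, the lowest of that group in HMOX1 and GCLM and the highest in NFE2L2 and SRXN1. HMOX1 counts among the 9 at an SD of 0.314 against 0.313, though its mean absolute deviation was smaller in exposed males (0.239 against 0.267). The spread without 8778, and the share of all genes with a wider SD in exposed lambs, were not examined.

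Correlations between pairs of members were taken across lambs once group means were removed. Of 45 pairs, 37 correlated positively with a median r of 0.19, and 4 passed a permutation test (100000 resamples of lambs within groups, two-sided, adjusted over the 45 pairs). These 4 pairs, with r of 0.58 or above, are 8.89% of the member pairs. Among all pairs of the 14344 genes averaging at least 1 CPM, 9.17% had an r of that size in either direction, so the share among members was near the background and is no result about them as a group. Of all those pairs 50.1% were positive, and the larger share among the member pairs was not tested. KEAP1 and GCLC were the most alike, with r = 0.74 and rho = 0.74 (0.73 for r without the 2 lambs farthest from the KEAP1 median; permutation p = 1e-05, the smallest these resamples can give, adjusted p = 0.00045, and p = 2e-05 for rho), and their r lay between 0.68 and 0.86 in the 4 groups. GCLM and CAT had r = 0.68 and rho = 0.59 (adjusted permutation p = 0.00675 and 0.0250), with r = 0.57 without 8778 and 8263. NFE2L2 and TXNRD1 had r = 0.63 and rho = 0.65 (adjusted permutation p = 0.0102 and 0.0110), and r kept at 0.63 without the 2 lambs farthest from the NFE2L2 median. GCLC and TXNRD1 had r = 0.58 and rho = 0.53 (adjusted permutation p = 0.0299 and 0.0464), and r = 0.49 without the 2 lambs farthest from the GCLC median. That relation was negative in control males (r = -0.43) and positive in the other 3 groups.

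The pairs defined by biochemistry were not the closest ones. NFE2L2 and KEAP1 had r = 0.29 and rho = 0.20 (adjusted permutation p = 0.403 and 0.593), and the 2 ligase subunits GCLC and GCLM had r = 0.40 and rho = 0.40 (adjusted permutation p = 0.126 and 0.172). HMOX1 correlated with no other member above r = 0.20 and NQO1 with none above 0.34, and neither took part in a passing pair. Both are widely used as NRF2 target genes, and their own r was 0.00.

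**Figure D4:**
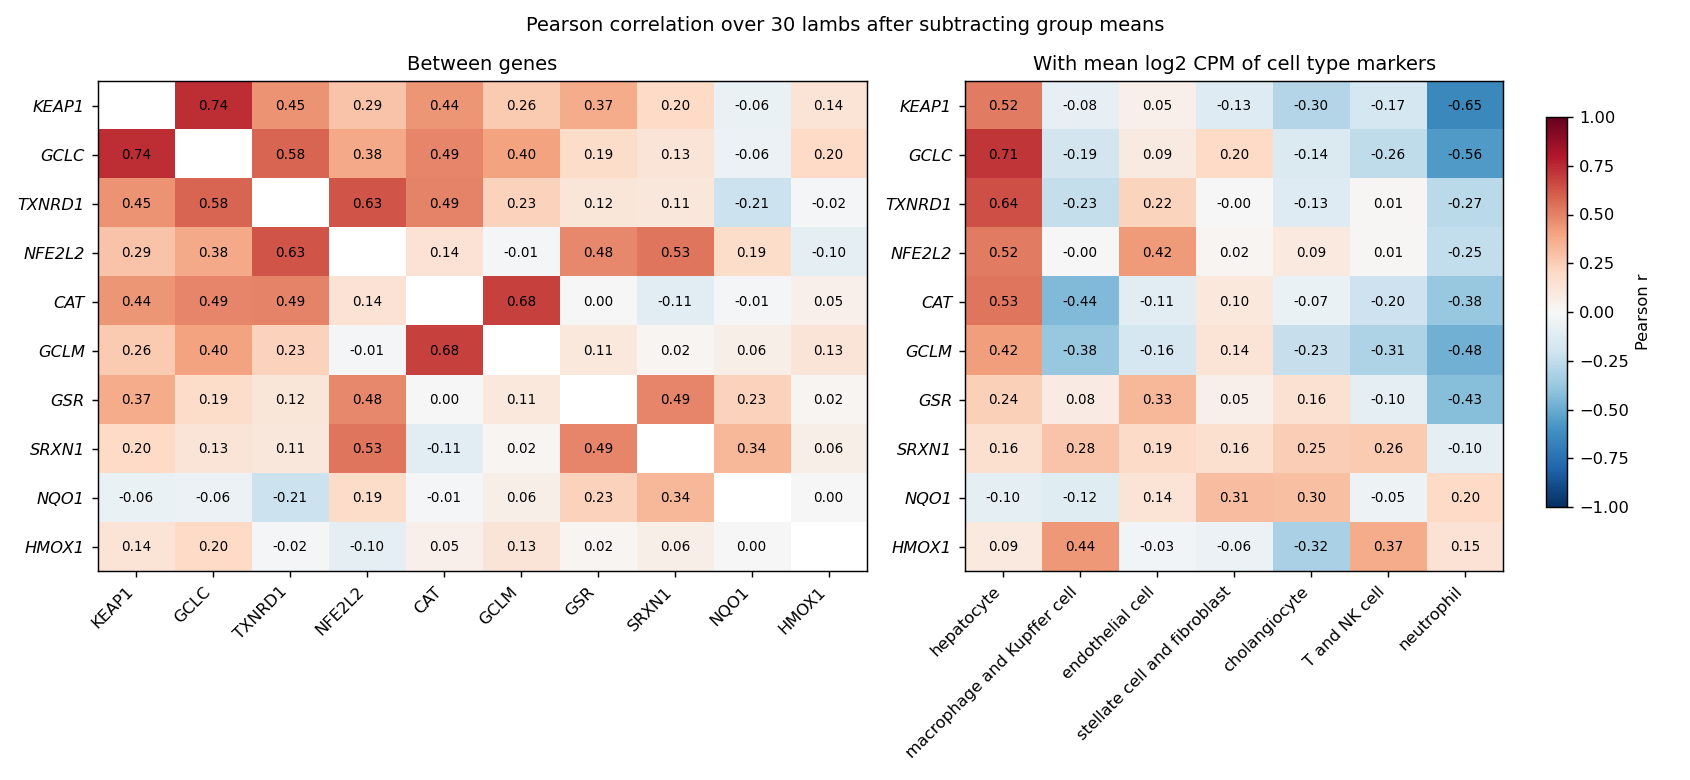
Pearson r over 30 lambs after group means were removed, between the 10 genes (left) and between each gene and the mean log2 CPM of 7 cell type marker lists (right; the sparse red cell precursor list is not drawn). The highest values are those of KEAP1 with GCLC (0.74) and GCLM with CAT (0.68), GCLC has the highest r with hepatocyte markers (0.71), and the HMOX1 and NQO1 rows stay at or below 0.34 between genes.

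Relations with cell type markers differed among the members. Of 80 relations with 8 marker lists, 6 passed the same permutation test for r and 5 of these also for rho. The share of all genes with relations of that size was not examined, so the count is no result about the members as a group. GCLC (r = 0.71, rho = 0.72, adjusted permutation p = 0.0064 and 0.0096) and TXNRD1 (r = 0.64, rho = 0.60, adjusted permutation p = 0.0144 and 0.0307) followed the hepatocyte markers. Without the 2 lambs farthest from the median of GCLC or TXNRD1, r was 0.71 and 0.70. KEAP1 (r = -0.65, rho = -0.58) and GCLC (r = -0.56, rho = -0.58) ran against the neutrophil markers, with adjusted permutation p = 0.0120 for both r and 0.0307 for both rho, and r was -0.59 and -0.53 without the 2 farthest lambs. Neutrophil markers were scarce, at 3.73 to 12.8 CPM summed over 4 tested genes. TXNRD1 and NFE2L2 ran against red cell precursor markers (r = -0.55 and r = -0.54, adjusted permutation p = 0.0453 for both; rho = -0.58 and rho = -0.46, adjusted permutation p = 0.0307 and 0.133), a list of which only 2 genes were tested and which summed to at most 4.28 CPM. HMOX1 was the member most like the macrophage markers, with r = 0.44 and rho = 0.39 (adjusted permutation p = 0.170 and 0.347), though r was 0.73 in control females and 0.67 in control males, and -0.11 and -0.02 in exposed females and males. With T and NK cell markers HMOX1 had r of 0.60 and 0.84 in control females and males, and -0.10 and -0.36 in exposed females and males. Other members also had high r with macrophage markers in single groups, as GSR did in control females (0.90) and SRXN1 in exposed males (0.74). The differences between these group values were not tested.

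Across all genes averaging at least 1 CPM, the pattern of 9 members over the 30 lambs was set beside that of every other gene as a description. CAT was most like ALDH6A1 (r = 0.91), an enzyme of valine breakdown, and SUOX (0.90), sulfite oxidase. NFE2L2 was most like HNRNPK (0.89), an RNA-binding protein, and KEAP1 most like ADRM1 (0.87), a proteasome ubiquitin receptor. TXNRD1 was most like FAF2 (0.86) and GCLM most like PITPNC1 (0.81). Best values were lower for 4 members, at 0.71 for SRXN1 (BAG1) and 0.69 each for NQO1 (TMT1A), HMOX1 (MIIP) and GSR (SPTLC2). The most negative r of these 4 was of similar size, at -0.67 for SRXN1, -0.64 for NQO1, -0.68 for HMOX1 and -0.69 for GSR. The best r to be had by chance among so many genes was not examined. Without 8778 the first match stayed for NFE2L2, NQO1, GSR and CAT and changed for KEAP1, HMOX1, GCLM, TXNRD1 and SRXN1.

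Single lambs were low or high in several members together. Control female 8360 was the lowest of its group in 5 members (NFE2L2, KEAP1, GCLC, GSR and SRXN1), and biosolids male 8735 in 5 (NFE2L2, KEAP1, GCLC, GSR and CAT). Both also had the lowest summed hepatocyte markers of their group, 65702 and 67245 CPM. Control male 8364 was lowest in 4 (KEAP1, HMOX1, GCLM and GSR) with the fifth lowest hepatocyte markers of 7. The library labelled control male 8408 had the lowest hepatocyte markers of its group, 93244 CPM, but the highest GCLC. Biosolids female 8647 was lowest in 4 (KEAP1, NQO1, GCLC and GSR) with hepatocyte markers in the middle of its group. Biosolids female 8733 was highest in 4 (NFE2L2, HMOX1, GCLM and CAT) and had the highest hepatocyte markers of its group, 114236 CPM. Lamb 8649, with the highest NQO1, was lowest of its group in HMOX1 and TXNRD1 and had the group's highest cholangiocyte and stellate cell marker sums, 209 and 613 CPM. Ribosomal RNA rows took 6.40% of counts in 8360, 6.67% in 8735 and 5.92% in 8408. They took 0.299% in 8364, 4.59% in 8647, 2.43% in 8733 and 4.21% in 8649. The parts of cell composition and of ribosomal RNA share in these values were not tested.

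**Figure D5:**
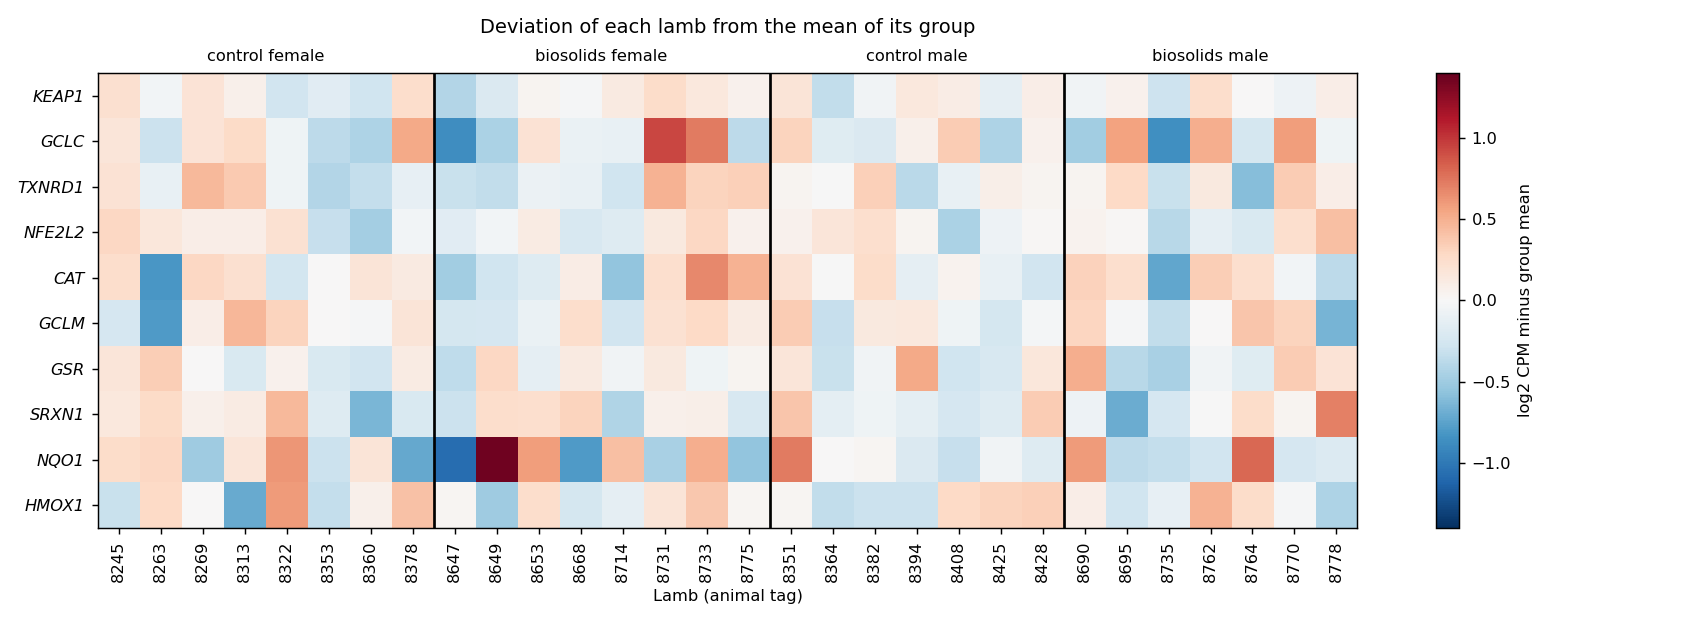
Deviation of each gene from its group mean in each lamb (log2 CPM, colour; columns are lambs ordered by group, rows are the 10 genes). Lambs 8360 and 8735 are low in 5 genes of their group each, and NQO1 in 8649 is the highest value of that gene.

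Other genes of the pathway were followed in 7 lists of 135 names, of which 115 had a row that could be tested. The lists cover NRF2 regulators and partners, glutathione synthesis and recycling, glutathione peroxidases and transferases, the thioredoxin and peroxiredoxin system, superoxide dismutases with selenoprotein synthesis, NADPH supply, and other NRF2 targets. None of the 115 passed the adjusted threshold in any of the 7 contrasts of the edgeR fit. At an unadjusted p under 0.05, exposure in females gave 3 higher and 0 lower genes, where 1.5% of all genes were higher and 2.15% lower. These were ME1, malic enzyme, a source of NADPH (1.12 ± 0.39 on the log2 scale), the glutathione peroxidase GPX2 (2.23 ± 0.80) and PTGES, a prostaglandin synthase of the glutathione transferase type (1.17 ± 0.53). All 3 are scarce here. ME1 had a median of 1.13 CPM in exposed females against 0.908 CPM in female controls and a maximum of 5.15 CPM in lamb 8714, and without that lamb its difference was 0.67 ± 0.35. GPX2 had a median of 0.205 CPM in exposed females against 0.179 CPM in female controls, and its mean rested on lamb 8649 at 9.503 CPM, the same lamb that had the highest NQO1 and the highest PTGES (6.56 CPM). Without 8649 the differences were -0.18 ± 0.55 for GPX2 and 0.31 ± 0.45 for PTGES.

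In males exposure gave 1 higher and 2 lower genes of the 115 at an unadjusted p under 0.05, beside 3.29% and 2.15% of all genes. TXN, thioredoxin, the substrate of TXNRD1, was at 9.85 ± 3.44 CPM in exposed males against 5.77 ± 2.17 CPM in male controls (SD, n = 7 each), a log2 difference of 0.75 ± 0.30 (SE). SOD3, extracellular superoxide dismutase, was at 44.96 ± 15.1 CPM in exposed males against 84.3 ± 35.4 CPM in male controls (SD, n = 7 each), a difference of -0.90 ± 0.34. SLC25A39, which carries glutathione into mitochondria, differed by -0.34 ± 0.16. The adjusted p was 0.816 for each of the 3 by edgeR's quasi-likelihood test. The median log2 fold change over the 115 genes was -0.01 in females and -0.04 in males, against -0.02 and 0.01 over all genes.

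For sex averaged over exposures, 18 of the 115 genes were higher in males and 12 lower at an unadjusted p under 0.05, beside 9.16% and 10.4% of all genes, and again none passed after adjustment. In the list of NRF2 regulators 7 of 16 were higher and 1 lower in males at that unadjusted p. By direction alone 14 were higher and 2 lower, and the share of all genes higher or lower by direction alone was not examined. Among the 7 were BACH2, a repressor at the same DNA elements (0.50 ± 0.18), and the coactivator CREBBP (0.31 ± 0.12). In the list of NADPH supply 5 of 12 were higher and 0 lower at that p, and 8 higher and 4 lower by direction alone. Among the 5 were PGD of the pentose phosphate pathway (0.27 ± 0.12) and the mitochondrial transhydrogenase NNT (0.41 ± 0.18). Other NRF2 targets gave 5 higher and 2 lower of 22 at that p. Glutathione peroxidases and transferases gave 0 and 2 of 15, and glutathione synthesis and recycling 0 and 2 of 20. Superoxide dismutases with selenoprotein synthesis gave 0 and 2 of 12, and the thioredoxin and peroxiredoxin list 1 and 3 of 18. By direction alone these lists gave, in that order, 9 higher and 13 lower, 5 and 10, 8 and 12, 6 and 6, and 7 and 11. ABCC2, a canalicular exporter of glutathione conjugates (0.44 ± 0.18), and EPHX1, a microsomal epoxide hydrolase (0.40 ± 0.17), were the pair with the smallest p among other NRF2 targets. PRDX6, a peroxiredoxin that uses glutathione, was higher in males (0.33 ± 0.11), whereas PRDX1 was lower (-0.49 ± 0.22). The mitochondrial glutaredoxin GLRX2 (-0.48 ± 0.16) and GLRX3 (-0.29 ± 0.11) were lower in males. Of these named genes the smallest adjusted p was 0.183, for PRDX6, by edgeR.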

How the data were processed

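The authors deposited 1 table of whole-number gene counts, not normalized, with 1 column per lamb (0 columns were left without a lamb) and, per the file headers, exon positions and another column with the summed exon length of each gene. The submitters' processing notes name featureCounts 1.5.0-p3, STAR, Trimmomatic, FastQC and MultiQC. Settings, strand use and genome build are not stated there (not given in the sources used here). Start and end matched assembly ARS-UI_Ramb_v3.0 of RefSeq in 28802 of the 28806 genes matched by symbol, all 10 members included. 7 genes broken over 25 lines were joined.

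Groups came from the labels for exposure and sex. The count model was fitted with edgeR 4.0.16 in R 4.3.3: filterByExpr (17840 genes), TMM scaling, and 1 robust quasi-likelihood model of 4 group means with 26 residual degrees of freedom (common biological coefficient of variation 35.2%). Benjamini-Hochberg adjustment ran over all genes tested, with a threshold of 0.05. CPM used TMM-scaled library sizes and log2 CPM a prior count of 2. Lambs were taken as independent, so p-values measure the spread between lambs and may understate the error if some were siblings.

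The members, lists and rule for naming genes were chosen with earlier results of these data known. The rule named all 10 members, up to 8 called genes of each list (where none was called, the 2 of smallest p), and the 3 genes most like each member. The gene most like GCLC is not reported here. PTGES, SLC25A39 and the marker values were named after their values were seen where they fall outside it. Tests of ratios, spread and correlations (scipy 1.17.1) were added after the levels had been seen, and the permutations exchange lambs between or within groups. Alternatives were RLE scaling, DESeq2 1.42.0, limma 3.58.1 voom with sample weights, no filter, ribosomal RNA rows removed and lambs left out. The test was checked on simulated counts. No sequence of these genes was used here.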

Additional observations from a re-analysis of the deposited data

Results flagged for a closer look

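NQO1 in control males had 1 value that stood apart. Lamb 8351 held 5.06 CPM, while the other 6 control males lay between 2.41 and 3.09 CPM, so that the gap to the nearest lamb was 0.665 of the range of the group on the log2 scale. It was the 1 such value among 40 combinations of a gene and a group, and chance flags about 1 in 20 groups. The same lamb was also the highest control male for KEAP1, GCLM and SRXN1.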

How the results depend on the processing

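With single lambs left out, edgeR called 0 genes and 0 members for exposure in females, in males and over both sexes and for the interaction (0 to 0 in each), 10 to 23 genes for sex in controls (23 without control female 8245), 12 to 21 for sex in exposed lambs and 20 to 51 for sex over both exposures (47 without 8735, 51 without 8778), with 0 to 0 members in each. DESeq2 called 4 genes for exposure in males, 4 over both sexes, 1 for the interaction, 53 for sex in controls and 106 for sex over both exposures. Limma voom with sample weights called 57 and 3348 genes in the last pair of contrasts, and 1 member, GCLC (0.50). The cause of these differences was not tested. Of 560 member values, which cover the 5 other methods and the fits without 8263, 8408 or 8778, 537 kept their direction and side of the threshold, 22 turned and 1 newly passed. Over the fits without each of the 30 lambs, 96 of 2100 member values turned, in 22 of 70 results.

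The results that turned in either set had log2 differences within 0.20 of 0 in the full fit. Under limma voom they were NQO1 (-0.0093) and CAT (-0.14) for exposure in females, GCLC (0.017) and SRXN1 (-0.080) in males, and TXNRD1 (0.041), SRXN1 (-0.0085) and CAT (0.052) for the interaction. GCLC in males also turned with no filter (0.0074) and with ribosomal RNA rows removed (0.00018). Leaving out 8263, 8408 or 8778 in turn moved HMOX1 (-0.036 to 0.0016) and CAT (-0.050 to 0.042) across 0 for exposure in females. It did so for NFE2L2 (-0.032 to 0.056) and SRXN1 (-0.032 to 0.096) in males, where GCLC went to 0.0032 to 0.058. Over both sexes NFE2L2 (-0.049 to 0.0051), SRXN1 (-0.072 to 0.0095) and CAT (-0.053 to 0.016) crossed 0, as did KEAP1 for the interaction (-0.011 to 0.027) and HMOX1 for sex over both exposures (-0.0085 to 0.034). With any single lamb left out, NQO1 for exposure in females ranged from -0.20 to 0.19. No paired analysis was possible because the groups share no replicate numbers. Depth limits NQO1 most, with 10 counts in 8778 and at least 79 elsewhere.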
